A study of Mus musculus with 24 samples.

Results

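Branched-chain amino acid breakdown was followed in mouse liver through 10 genes, Bckdha, Bckdhb, Bckdk, Ivd, Mccc1, Mccc2, Auh, Hibch, Hibadh and Pccb. They were taken by name, through the gene symbol that the platform annotation gives each probe set, and the list was made with earlier results of these data known. A probe set pools several short oligonucleotides on the array into 1 value. The 10 genes had 22 annotated probe sets, of which 17 passed a filter on low values, and each gene kept at least 1, so that all 10 were among the 13385 genes tested. All mice were female, of strain NMR-1, and 8 weeks old when the diets began. For 2 weeks, 6 mice were kept on the laboratory pellet on which they had been raised (pellet diet), 6 on the vegetables, fruit and yogurt given to captive chimpanzees (chimpanzee diet), 6 on cooked meals from an institute cafeteria (cafeteria diet) and 6 on fast food only (fast food diet). The cafeteria and fast food mice together were treated as 12 mice on human diets. The RNA was processed in 2 batches, each with 3 mice of every diet, and every mouse gave 1 liver array.

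Leucine, isoleucine and valine are essential amino acids that share the first steps of their breakdown. A transaminase removes the amino group, and the branched-chain ketoacid dehydrogenase of the mitochondrion then commits the carbon skeletons to oxidation. That complex is switched off when a dedicated kinase phosphorylates it and on when a phosphatase removes the phosphate. Beyond it the routes part: leucine yields acetyl-CoA and acetoacetate, valine yields propionyl-CoA, and isoleucine yields both acetyl-CoA and propionyl-CoA. Rodent liver is known for a very active dehydrogenase and for little of the transaminase, most of which lies in other tissues such as muscle.

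The sequences before the starts of Ivd, Mccc1 and Mccc2 are shown because Ivd and Mccc2 carried the differences between diets, and because Mccc1 encodes the partner subunit of Mccc2. All 10 genes had an entry in the RefSeq promoter table (build GRCm38.p6), and the 250 bases before the annotated start are printed 5′ to 3′ on the strand of the gene. Capitals mark CCAAT or its reverse complement ATTGG, the CCAAT box bound by the factor NF-Y. The Ivd sequence is chr2:118861744-118861993 on the plus strand, that of Mccc1 is chr3:36000679-36000928 on the minus strand, and that of Mccc2 is chr13:100015640-100015889 on the minus strand.
Ivd: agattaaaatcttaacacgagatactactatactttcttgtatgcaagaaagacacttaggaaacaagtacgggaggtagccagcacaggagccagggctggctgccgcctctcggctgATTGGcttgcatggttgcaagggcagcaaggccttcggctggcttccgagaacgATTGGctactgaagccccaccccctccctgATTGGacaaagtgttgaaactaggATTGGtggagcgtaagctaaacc
Mccc1: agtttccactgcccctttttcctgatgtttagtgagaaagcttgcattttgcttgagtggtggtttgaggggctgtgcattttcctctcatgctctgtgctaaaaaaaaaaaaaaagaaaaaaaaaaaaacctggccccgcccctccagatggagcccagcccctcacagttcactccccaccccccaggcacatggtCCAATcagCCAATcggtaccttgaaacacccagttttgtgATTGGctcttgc
Mccc2: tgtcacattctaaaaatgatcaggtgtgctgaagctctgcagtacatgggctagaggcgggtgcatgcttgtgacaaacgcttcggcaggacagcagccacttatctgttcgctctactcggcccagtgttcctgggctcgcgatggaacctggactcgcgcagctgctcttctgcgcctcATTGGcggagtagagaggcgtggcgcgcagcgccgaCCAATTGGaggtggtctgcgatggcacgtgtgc
The Ivd sequence held 4 such matches, and those of Mccc1 and Mccc2 held 3 each. In Mccc2, 2 of the 3 matches share their middle bases, since CCAATTGG reads as a match on either strand. At least 1 match was present in 33.8% of the 32851 windows of the table, and 3 or more in 2.79%, a count chosen after the matches were seen. The 10 genes had 11 windows in the table, of which 2 belong to Bckdhb, and 6 of the genes held at least 1 match and 3 held 3 or more. The E-box CACGTG was in the window of 1 of the 10 genes, Mccc2, where it overlapped no CCAAT match, and in 6.02% of all windows. Of the other strings searched on both strands, GGGCGG was in 5 of the 10 genes and 32.7% of all windows, CACCC in 6 and 52%, AGGTCA in 1 and 14%, TATAAA in 1 and 12.4%, and TGATG in 2 and 34.5%. A match describes the letters only.

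The values are log2 expression values from robust multichip averaging. The upper 10% of the values of an array began at 6.50 ± 0.07 (SD, n = 12) in batch 1 and at 6.04 ± 0.20 (SD, n = 12) in batch 2, so arrays differed in range, and batch was a term of the fits reported here. This start differed between human and chimpanzee diets by 0.08 on the log2 scale (exact permutation test within batches, two-sided, p = 0.381). The difference between the 3′ and 5′ control probe sets of beta-actin, which grows as RNA is degraded or copied incompletely, was 1.08 ± 0.15 on the chimpanzee diet (SD, n = 6), 0.853 ± 0.108 on the human diets (SD, n = 12) and 0.754 ± 0.135 on the pellet diet (SD, n = 6). It was higher on the chimpanzee diet than on the human diets (exact permutation test, two-sided, p = 0.000992, adjusted p = 0.00794 over 8 tests) and than on the pellet diet (exact p = 0.005, adjusted p = 0.02). The hepatocyte genes Alb, Ttr, Apoa1, Apob and Cps1 lay above the 99th percentile of the genes tested. Of 32 tested marker genes of hepatocytes and 8 other cell types, 0 passed at an adjusted p below 0.05 (limma) between human diets and the chimpanzee diet, with 1 at an unadjusted p below 0.05, and 0 passed between human diets and the pellet diet, with 0 at an unadjusted p below 0.05.

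Relative to the chimpanzee diet, human diets went with higher levels of Ivd, the first enzyme particular to leucine, and of Mccc2, a subunit of the carboxylase that acts next. These 2 of the 10 genes passed at an adjusted p below 0.05 (limma, Benjamini-Hochberg over all genes), both higher, where 1.49% of all genes passed and 1.15% passed as higher. All 10 genes had differences above 0, from 0.03 to 0.63 on the log2 scale with a median of 0.21, while the median of all genes tested was 0.004 and 51.4% of them lay above 0. With the beta-actin measure described above as a covariate, or in batch 1 alone, 7 of the 10 were above 0, and under cyclic loess normalization 8 were above 0 with a median of 0.11. Relative to the pellet diet, Ivd alone passed as higher on human diets, and Mccc2 was lower on the chimpanzee diet than on the pellet diet. The 3 comparisons share mice, so they are not separate evidence, and whether Ivd and Mccc2 differ from each other in their response was not tested. In a piece of liver, fewer cells of a type and less RNA per cell cannot be told apart.

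**Figure D1:**
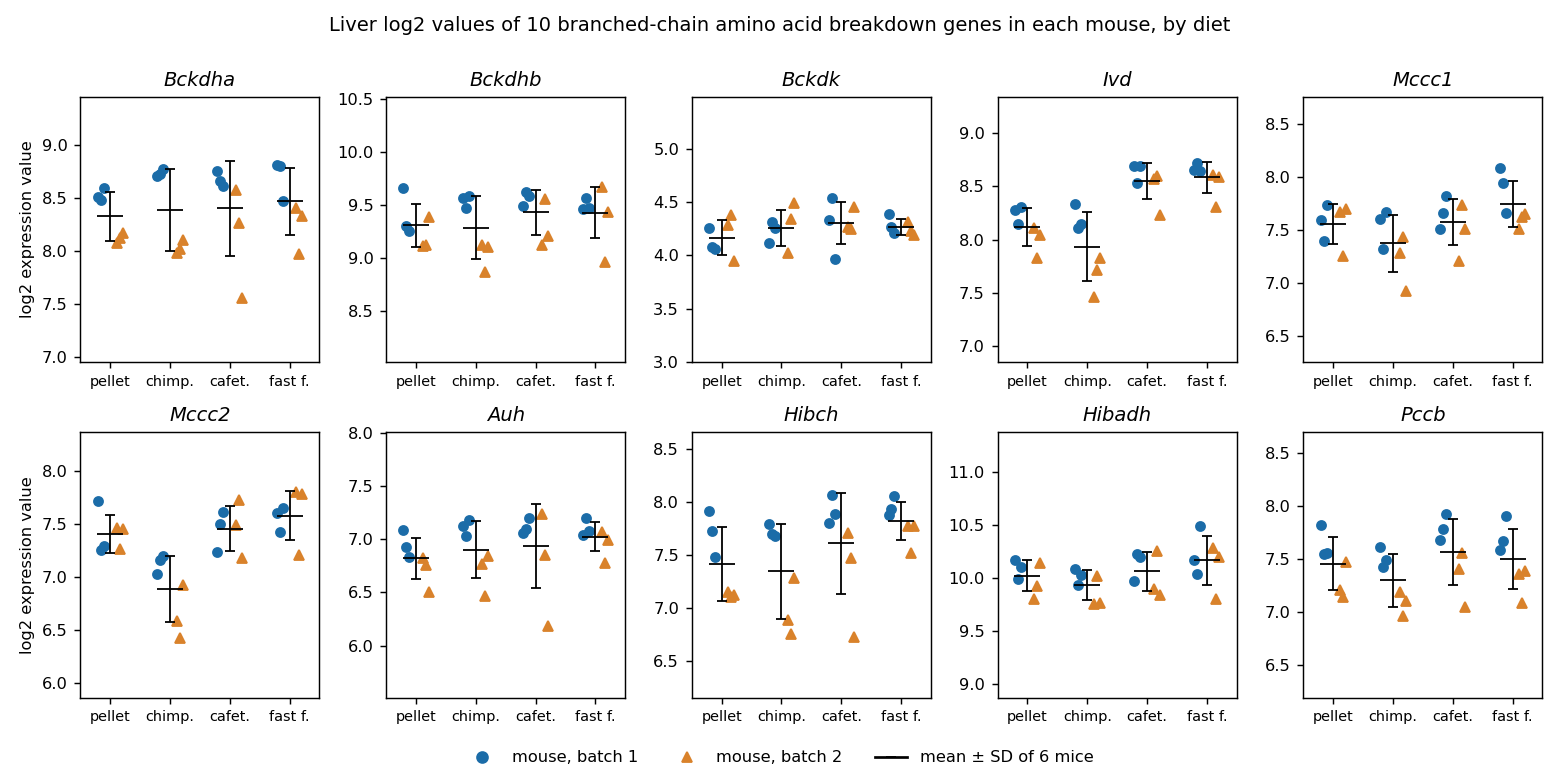
Liver log2 expression value (vertical axes, all of the same span) of the 10 genes in each mouse by diet, with circles for batch 1, triangles for batch 2, and bars for the mean ± SD of 6 mice. Ivd sits between 8.23 and 8.72 on the cafeteria and fast food diets, and between 7.46 and 8.34 on the others, while Mccc2 is lowest on the chimpanzee diet, between 6.42 and 7.19.

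Bckdha and Bckdhb encode the alpha and beta chains of the E1 component, the decarboxylase of the ketoacid dehydrogenase, and Bckdk encodes the kinase that switches it off. Bckdha lay between 7.98 and 8.77 on the chimpanzee diet (median 8.41), between 7.55 and 8.81 on the human diets (median 8.52) and between 8.07 and 8.59 on the pellet diet (median 8.32). The 3 ranges overlapped, and the difference of human diets from the chimpanzee diet was 0.05 ± 0.11 (SE) on the log2 scale, with a 95% interval from -0.18 to 0.28. Bckdhb gave a difference of 0.14 ± 0.09 (SE, adjusted p = 0.53), which was -0.01 in batch 1 and 0.29 in batch 2. Bckdk lay between 4.03 and 4.49 on the chimpanzee diet, between 3.97 and 4.54 on the human diets and between 3.95 and 4.38 on the pellet diet. Its difference of 0.03 ± 0.08 (SE) between human and chimpanzee diets had a 95% interval from -0.14 to 0.20. For neither the E1 chains nor their kinase did a difference pass in any of the 4 comparisons. Bckdha followed the range of the arrays more closely than the other 9 genes, with r = 0.71 to the start of the upper 10% over 24 arrays after removal of batch means.

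Ivd encodes isovaleryl-CoA dehydrogenase, a mitochondrial flavin enzyme whose loss in people causes isovaleric acidaemia. In batch 1 the chimpanzee diet mice had log2 values of 8.34, 8.11 and 8.15, the cafeteria mice 8.69, 8.53 and 8.69, and the fast food mice 8.65, 8.72 and 8.64. In batch 2 the chimpanzee diet mice had 7.46, 7.72 and 7.83, the cafeteria mice 8.57, 8.60 and 8.23, and the fast food mice 8.61, 8.31 and 8.59. Every mouse on a human diet was thus above every chimpanzee diet mouse of its batch, a pattern shared by 0.501% of all genes tested. Mccc2 was the only other one of the 10 genes with that pattern. The difference was 0.63 ± 0.08 (SE) on the log2 scale, or 1.55-fold (adjusted p = 0.000875), and was 0.45 in batch 1 and 0.81 in batch 2. The interaction of diet with batch had an unadjusted p of 0.0274 in the limma fit and an adjusted p of 1.00.

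The pellet diet mice had Ivd values of 8.27, 8.15 and 8.31 in batch 1 and of 8.11, 7.83 and 8.04 in batch 2. All 6 lay below every mouse on a human diet of the same batch. The share of all genes with that pattern was not counted for the pellet diet. Human diets exceeded the pellet diet by 0.45 ± 0.07 (SE), or 1.37-fold (adjusted p = 0.000441), with 0.41 in batch 1 and 0.49 in batch 2. Ivd was the 1 gene of the 10 that passed in this comparison, where 4.98% of all genes passed, 2.15% as higher and 2.82% as lower. The chimpanzee diet was 0.18 ± 0.09 (SE) below the pellet diet, and the groups overlapped in both batches (adjusted p = 0.244). A second Ivd probe set gave 0.54 ± 0.08 (SE) against the chimpanzee diet and 0.30 ± 0.07 (SE) against the pellet diet.

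Mccc1 and Mccc2 encode the alpha and beta subunits of 3-methylcrotonyl-CoA carboxylase, the biotin-dependent enzyme that takes up the product of isovaleryl-CoA dehydrogenase. In batch 1 the Mccc2 values were 7.03, 7.16 and 7.19 on the chimpanzee diet, 7.24, 7.50 and 7.61 on the cafeteria diet and 7.60, 7.43 and 7.65 on the fast food diet. In batch 2 they were 6.59, 6.42 and 6.93 on the chimpanzee diet, 7.49, 7.72 and 7.17 on the cafeteria diet and 7.80, 7.20 and 7.78 on the fast food diet. No chimpanzee diet mouse reached the lowest human diet mouse of its batch. The difference was 0.63 ± 0.12 (SE), or 1.55-fold (adjusted p = 0.0105), and was 0.38 in batch 1 and 0.88 in batch 2, with an interaction of unadjusted p = 0.0283 and adjusted p = 1.00 (limma). With every probe set tested by itself (limma), the other 2 probe sets of Mccc2 gave 0.67 ± 0.17 (SE, adjusted p = 0.0638) and 0.65 ± 0.11 (SE, adjusted p = 0.0085). The former thus did not pass.

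On the pellet diet Mccc2 stood at 7.72, 7.25 and 7.29 in batch 1 and at 7.46, 7.26 and 7.45 in batch 2. The lowest pellet diet mouse, at 7.25, was above the highest chimpanzee diet mouse, at 7.19, over both batches. How many of all genes were separated in this way was not counted. The chimpanzee diet was 0.52 ± 0.13 (SE) below the pellet diet, or 1.43-fold lower (adjusted p = 0.0104). Mccc2 was the 1 gene of the 10 that passed here, in a comparison in which 10.4% of all genes passed, 2.93% as higher and 7.43% as lower. A count of 1 in 10 is close to that background. Human diets differed from the pellet diet in Mccc2 by 0.11 ± 0.10 (SE), with a 95% interval from -0.11 to 0.33. In the comparison of chimpanzee and pellet diets, 2 of 6 Kupffer cell markers also passed as lower, at -0.78 for Clec4f and -1.16 for Vsig4 (log2). Differences of the 6 markers ran from -1.16 to 0.37, so they did not all go the same way. The part of Kupffer cells in the Mccc2 result was not tested. The sum of log2 values over the 6 markers ran from 27.9 to 35.3 on the chimpanzee diet and from 32.1 to 36.6 on the pellet diet, and all 6 passed the filter on low values.

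Mccc1, the partner of Mccc2, lay between 6.93 and 7.67 on the chimpanzee diet (median 7.38), between 7.21 and 8.08 on the human diets (median 7.65) and between 7.25 and 7.73 on the pellet diet (median 7.63). Its groups overlapped in both batches. The difference of human from chimpanzee diets was 0.28 ± 0.10 (SE), with an unadjusted p of 0.0093 in the limma fit and an adjusted p of 0.162. A second probe set gave 0.13 ± 0.12 (SE). Auh encodes the hydratase that follows the carboxylase in leucine breakdown and also binds AU-rich RNA. It gave 0.08 ± 0.11 (SE) against the chimpanzee diet and 0.16 ± 0.11 (SE) against the pellet diet, and 4 of its 6 probe sets did not pass the filter. Within the leucine route the 4 genes therefore had differences of 0.63, 0.28, 0.63 and 0.08 between human and chimpanzee diets, in the order Ivd, Mccc1, Mccc2 and Auh.

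**Figure D2:**
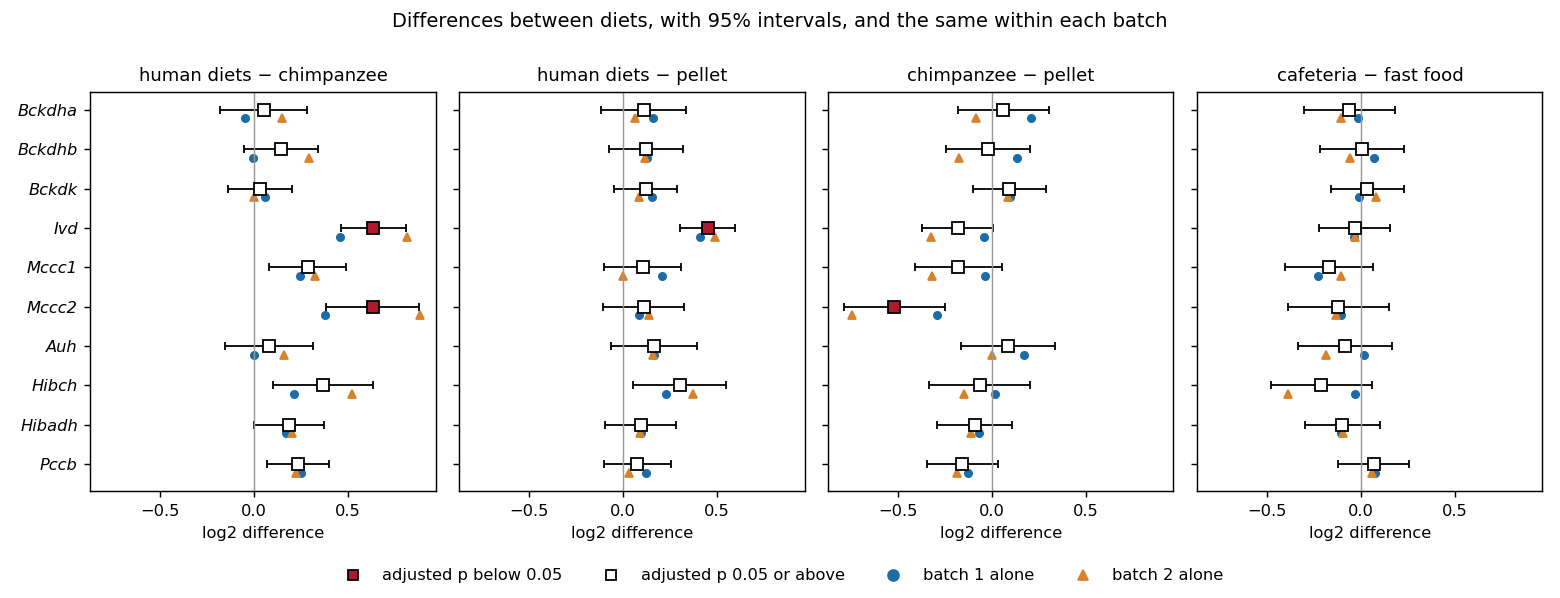
Log2 difference between diets (horizontal axes) of the 10 genes in 4 comparisons, as squares with 95% intervals, filled where the adjusted p was below 0.05, with circles and triangles for batch 1 and batch 2 alone. Ivd is filled against both the chimpanzee and the pellet diet, at 0.63 and 0.45, and Mccc2 in both comparisons that hold the chimpanzee diet, at 0.63 and -0.52.

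Both called differences between human and chimpanzee diets were larger than the spread between mice in these fits, but moved with a measure of the arrays. With the beta-actin difference as a covariate, Ivd gave 0.56 ± 0.12 (SE, adjusted p = 0.134) and Mccc2 gave 0.44 ± 0.16 (SE, adjusted p = 0.484), and 5 of the 13385 genes passed. Over 24 arrays, after removal of batch means, the beta-actin difference had r = -0.66 with Mccc2, -0.35 with Ivd and -0.27 with Mccc1, on values that share array and RNA. The same covariate left Ivd higher on human diets than on the pellet diet by 0.45 ± 0.08 (SE, adjusted p = 0.00185), and took Mccc2 between chimpanzee and pellet diets to -0.29 ± 0.18 (SE, adjusted p = 0.637). Diet and this measure go together in these mice, and its part in the results was not tested. Without the 4 arrays of lowest range, the Mccc2 difference between chimpanzee and pellet diets was -0.32 ± 0.11 (SE, adjusted p = 0.064), while Ivd and Mccc2 still passed between human and chimpanzee diets.

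**Figure D3:**
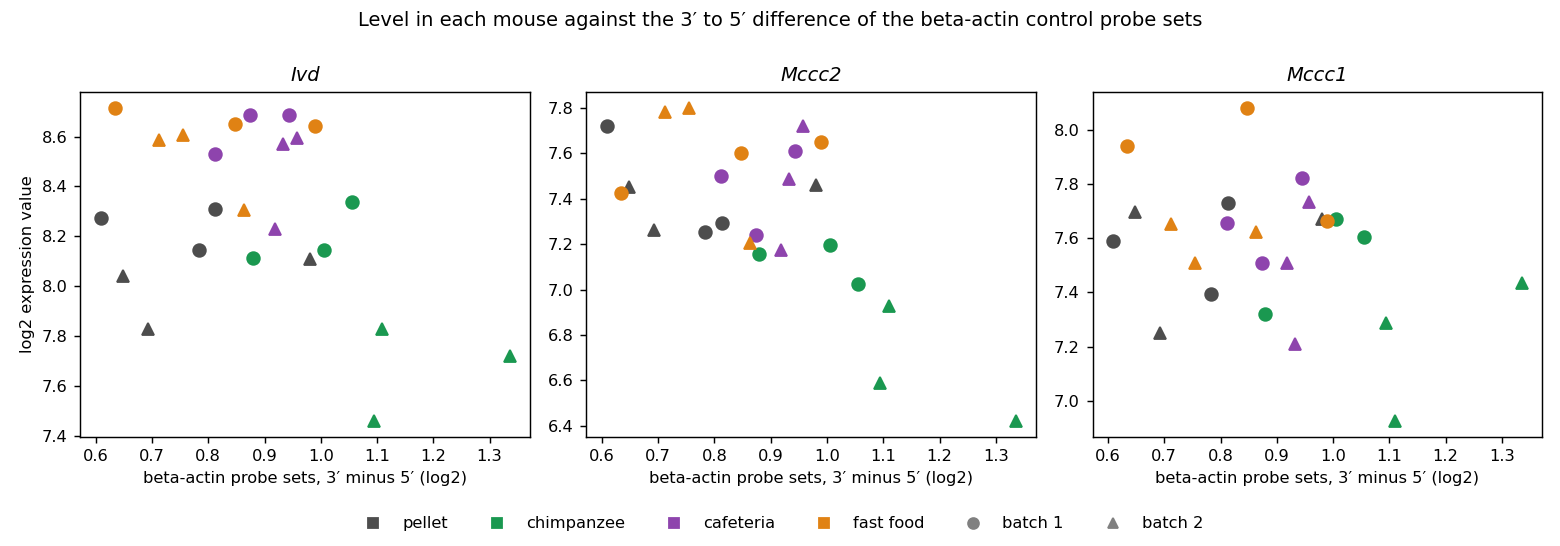
Log2 expression value of Ivd, Mccc2 and Mccc1 (vertical axes) in each of 24 mice against the difference of the 3′ and 5′ beta-actin control probe sets (horizontal axes, log2), with colours for diets and circles or triangles for batches 1 and 2. Of the 6 chimpanzee diet mice, 5 hold the highest beta-actin differences of all 24 mice, and 5 hold the lowest Mccc2 values.

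Hibch and Hibadh act one after the other on valine, as the hydrolase that frees 3-hydroxyisobutyrate from CoA and the dehydrogenase that oxidises it. Hibch lay between 6.75 and 7.79 on the chimpanzee diet (median 7.48), between 6.73 and 8.06 on the human diets (median 7.79) and between 7.10 and 7.91 on the pellet diet (median 7.31). In batch 1 all 6 mice on human diets, from 7.80 to 8.06, were above the chimpanzee diet mice, whose highest was 7.79. The share of all genes separated in batch 1 was not counted. In batch 2 the groups overlapped through 1 cafeteria mouse (batch 2, replicate 3) at 6.73, the lowest of all 24. Human diets exceeded the chimpanzee diet by 0.37 ± 0.13 (SE, adjusted p = 0.161), and the pellet diet by 0.30 ± 0.12 (SE, adjusted p = 0.208). Without that mouse the differences were 0.44 ± 0.09 (SE, adjusted p = 0.0139) and 0.37 ± 0.08 (SE, adjusted p = 0.00581), so both passed without this 1 mouse. Calls rose over all genes as well, from 1.49% to 4.95% against the chimpanzee diet and from 4.98% to 6.42% against the pellet diet. With the mouse kept, Hibch passed against the chimpanzee diet with array weights (adjusted p = 0.0225), and against the pellet diet with array weights, cyclic loess, quantile normalization or array range as a covariate (adjusted p from 0.0029 to 0.0329). In the same order, these fits passed 9.5% of all genes for the chimpanzee diet, and 9.88%, 8.94%, 8.64% and 10.3% for the pellet diet. The array of that mouse had the narrowest range, with the upper 10% of values starting at 5.66. A second Hibch probe set, above the filter level in 12 of 24 arrays, gave 0.13 ± 0.09 (SE) and -0.05 ± 0.09 (SE). Hibadh gave 0.18 ± 0.09 (SE, adjusted p = 0.354) against the chimpanzee diet and 0.09 ± 0.09 (SE) against the pellet diet, with overlapping groups in both batches.

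Pccb encodes the beta subunit of propionyl-CoA carboxylase, where the valine and isoleucine routes meet. It lay between 6.97 and 7.61 on the chimpanzee diet (median 7.31), between 7.04 and 7.92 on the human diets (median 7.57) and between 7.14 and 7.82 on the pellet diet (median 7.51). Human diets exceeded the chimpanzee diet by 0.23 ± 0.08 (SE, adjusted p = 0.146), 0.25 in batch 1 and 0.22 in batch 2, and the groups overlapped in both. Without the same cafeteria mouse it was 0.26 ± 0.07 (SE, adjusted p = 0.0489), and Pccb also passed with array weights (adjusted p = 0.022) and by the methods' procedure, which applies no adjustment. Of all genes, 4.95%, 9.5% and 6.12% passed in these fits, in that order, against 1.49% in the reported fit.

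Between the cafeteria and fast food diets 0 of the 10 genes passed (limma), 0 had an unadjusted p below 0.05, and 0.00747% of all genes, 1 gene, passed. By the methods' procedure, without adjustment, 0 of the 10 passed as well, against 256 of 14273 genes (1.79%). The differences ran from -0.21 ± 0.13 (SE) for Hibch to 0.07 ± 0.09 (SE) for Pccb. For Ivd the 95% interval of the difference was -0.23 to 0.15, and for Mccc2 it was -0.39 to 0.15. The Ivd difference of 0.45 between human and pellet diets came from another fit, and was not tested against that between cafeteria and fast food diets.

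A further 23 genes of the pathway, taken for their place in it, were tested. That list too was made with earlier results of these data known. Between human and chimpanzee diets 2 of the 23 passed, both higher, where 1.49% of all genes passed and 1.15% passed as higher. Mcee, the epimerase that acts on methylmalonyl-CoA, was higher by 0.56 ± 0.11 (SE, adjusted p = 0.0137), and Hsd17b10, a dehydrogenase of isoleucine breakdown, by 0.37 ± 0.08 (SE, adjusted p = 0.0186). In both genes every mouse on a human diet was above every chimpanzee diet mouse of its batch. The median over the 23 genes was 0.23, 19 were above 0, and 15 had an unadjusted p below 0.05, as had 1918 of the 13385 genes. With the beta-actin difference as a covariate, Mcee had 0.46 (adjusted p = 0.423) and Hsd17b10 had 0.31 (adjusted p = 0.47). Both calls were also lost without 1 chimpanzee diet mouse (batch 2, replicate 2), at an adjusted p of 0.0529 for each, and that of Hsd17b10 without chimpanzee diet replicate 1 of batch 2 (adjusted p = 0.0661). Without the batch term neither gene passed (adjusted p = 0.148 for Mcee and 0.23 for Hsd17b10), nor in either batch alone. Hsd17b10 did not pass by the methods' procedure, which read another probe set of the gene, at 0.42 ± 0.16 (SE). In the reported probe set the difference was 0.22 in batch 1 and 0.52 in batch 2. The interaction there had an unadjusted p of 0.0467 (limma) and did not pass after adjustment.

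Between human and pellet diets 4 of the 23 passed, 3 as higher and 1 as lower, where 2.15% of all genes passed as higher and 2.82% as lower. Klf15, a transcription factor that promotes amino acid breakdown, was higher on human diets by 0.48 ± 0.09 (SE, adjusted p = 0.00386). Ppm1k, the phosphatase that switches the ketoacid dehydrogenase on, was higher by 0.53 ± 0.14 (SE, adjusted p = 0.0386), beside a difference of 0.12 ± 0.08 (SE, adjusted p = 0.624) for the opposing kinase Bckdk. The Bckdk probe set averaged only 4.25 over all arrays, against means of 8.61 and 8.09 for Ppm1k on human and pellet diets. Mmaa, needed to load cobalamin onto methylmalonyl-CoA mutase, was higher by 0.37 ± 0.10 (SE, adjusted p = 0.0376). Slc25a44, the mitochondrial carrier of branched-chain amino acids, had a difference of -0.69 ± 0.18 (SE, adjusted p = 0.0248). In batch 2 the groups overlapped for all 4 genes. The calls of Ppm1k, Mmaa and Slc25a44 were lost in 10, 12 and 5 of the 18 fits that left out 1 mouse, with adjusted p values of up to 0.108, 0.106 and 0.091. Klf15 lost its call in 0 of these fits, but did not pass in batch 1 alone (adjusted p = 0.0799, limma) or batch 2 alone (0.298). Without the batch term 0 of the 4 passed, with an adjusted p of 0.102 for Klf15. With the beta-actin covariate Slc25a44 had an adjusted p of 0.0688 and Mmaa of 0.071, and without the filter on low values Ppm1k had 0.0574. Between chimpanzee and pellet diets Bcat2, the mitochondrial transaminase, had -0.31 ± 0.08 (SE, adjusted p = 0.0195), Pcca, the partner subunit of Pccb, -0.39 ± 0.11 (SE, adjusted p = 0.0211), and Mmab, which makes adenosylcobalamin, -0.36 ± 0.11 (SE, adjusted p = 0.0421). These 3 of 23 passed as lower and 0 as higher, where 7.43% of all genes passed as lower and 2.93% as higher, so the share is near the background. With the beta-actin covariate all 3 calls were lost, at -0.30 for Bcat2, -0.25 for Pcca and -0.41 for Mmab. They were also lost in 1, 4 and 9 of the 24 fits that left out 1 mouse, in the order given, and those of Bcat2 and Mmab under cyclic loess and quantile normalization. Pccb itself gave -0.16 ± 0.09 (SE, adjusted p = 0.328) in that comparison.

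**Figure D4:**
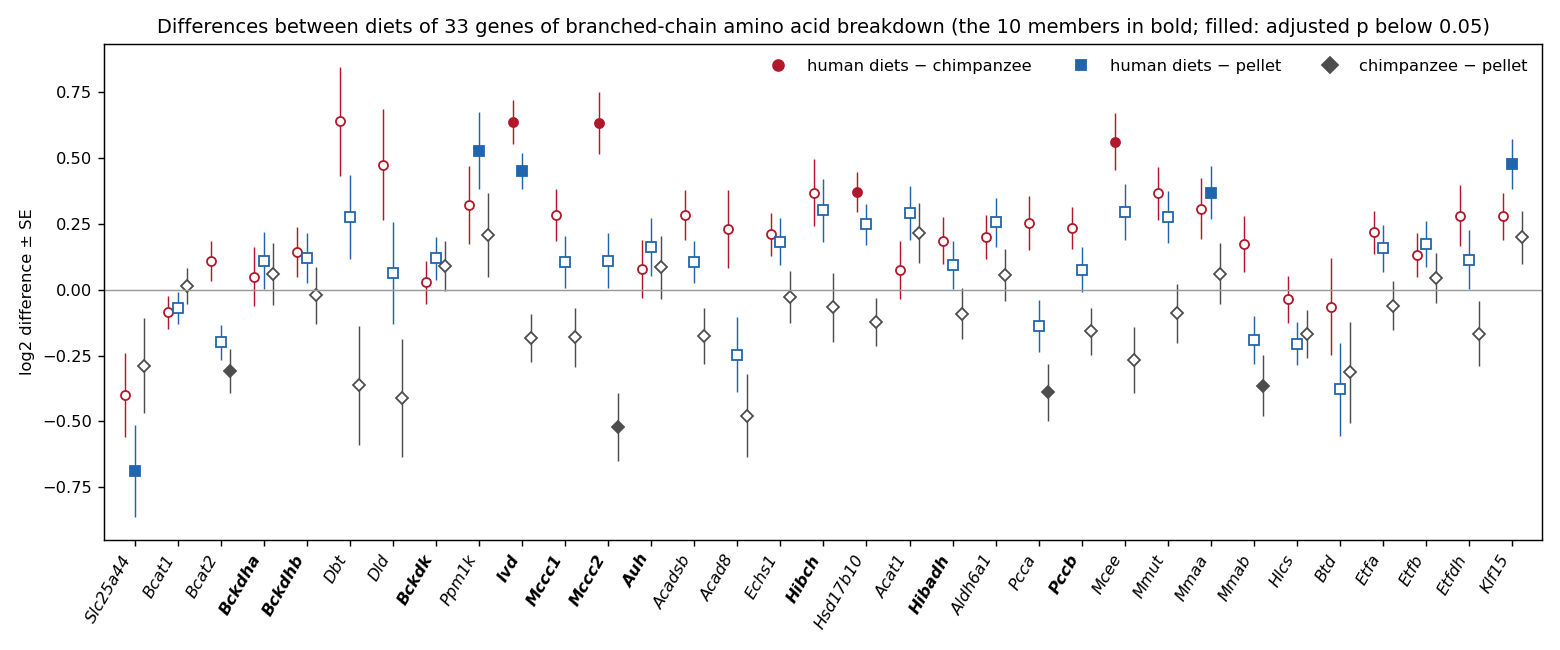
Log2 difference ± SE (vertical axis) of 33 genes of branched-chain amino acid breakdown, ordered along the pathway with the 10 genes in bold, for human minus chimpanzee (circles), human minus pellet (squares) and chimpanzee minus pellet diets (diamonds), filled where the adjusted p was below 0.05. Filled circles mark Ivd, Mccc2, Hsd17b10 and Mcee, and filled squares include Ivd at 0.45, Ppm1k at 0.53 and Klf15 at 0.48.

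The 10 genes varied together to a moderate degree. Over 24 arrays, after removal of batch means, the 45 pairs had Pearson's r from -0.31 to 0.80 with a median of 0.44, and 37 pairs were above 0. All points share array, RNA and diet, so the values describe these arrays only. Ivd and Mccc2 had r = 0.78, against 0.47 for Mccc2 and its partner Mccc1. Among all genes tested, those most like Ivd were Snrnp25 (r = 0.93), Adhfe1 (0.92), Hsd17b10 (0.88), Apol7a (0.87) and Aadat (0.87). Hsd17b10 belongs to the pathway list, and Aadat encodes an aminotransferase of lysine and kynurenine breakdown. Those most like Mccc2 were Aifm1 (0.92), Tmem242 (0.91), Bpnt1 (0.91), Mrpl27 (0.90) and Gnpnat1 (0.89). Mccc2 came at place 44 among the genes most like Ivd, and Ivd at place 193 among those most like Mccc2.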

How the data were processed

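Each mouse had 1 deposited column of log2 values, which the authors made with the rma method of the Bioconductor package affy, which corrects background, normalizes by quantiles and summarizes probes. Its version is not given in the sources used here. Detection p-values were not used here. Arrays differed in range, so the deposited values were not equal in distribution over these 24 livers.

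Of 45101 probe sets, 64 were controls. By the platform annotation 34945 of the rest carried 1 gene symbol, 932 carried more and 9160 carried none. Probe sets had to exceed 3.147, which is the median over all values, on at least 6 arrays, and a gene was read through its kept probe set of highest mean. Sets that read related transcripts can mix signals. Groups and batches came from the labels. Mice of 1 litter were placed on different diets, but the labels do not give litters. Human diets were compared with chimpanzee or pellet diet in fits of 18 mice, and pairs of diets in a fit of 24, with limma 3.58.1 in R 4.3.3, batch as a term and Benjamini-Hochberg adjustment over 13385 genes (two-sided, adjusted p 0.05). The number of arrays limits the precision. The alternatives were other normalizations, covariates for array range and the beta-actin difference, array weights, no batch term, single batches, no filter, every probe set by itself, leaving out mice, a replicate block, the other set of mice in the fit, and the methods' analysis of variance at an unadjusted p of 0.01, without adjustment and with probe sets dropped for an interaction with batch. The 10 genes and all lists were chosen with earlier results of these data known. All 10 genes are named, and of the other pathway genes those that passed, and 1 listed gene is not reported here. Promoter windows were matched by symbol to the RefSeq table.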

Additional observations from a re-analysis of the deposited data

Results flagged for a closer look

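Of the 40 sets of 6 mice formed by the 10 genes and 4 diets, 4 held a mouse far from its nearest neighbour. Its gap took an unusually large part of the range of its diet (Dixon's criterion). The criterion's chance rate of about 1 in 20 holds for separate samples of 1 distribution. These sets pool 2 batches of different level and share mice, so the count cannot be set against that rate. In the fast food group, replicate 2 of batch 2 was low for Ivd, at 8.31 with the next mouse at 8.59. The same mouse was low for Bckdhb, at 8.97 with the next at 9.43. In the cafeteria group, replicate 3 of batch 2 was low for Ivd, at 8.23 with the next mouse at 8.53. It was low for Auh as well, at 6.18 with the next at 6.85. Both arrays were among the 4 of lowest range, with upper 10% starts of 5.85 and 5.66. Without either mouse Ivd and Mccc2 still passed between human and chimpanzee diets.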

How the results depend on the processing

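Ivd and Mccc2 between human and chimpanzee diets, Ivd between human and pellet diets and Mccc2 between chimpanzee and pellet diets kept their direction under every alternative. Of 1400 values of the 10 genes under alternatives, 10 lost a call, 13 gained one, 0 reversed and 54 changed sign with no call in either fit. Between human and chimpanzee diets 2 genes passed, against 0 with the beta-actin difference as a covariate, 1 in batch 1 alone, 0 in batch 2 alone, 5 with array weights (the added genes were Mccc1, Hibch and Pccb), 3 by the methods' procedure (Pccb was added) and 2 to 4 when 1 mouse was left out. The genes above 0 fell from 10 to 7 with the beta-actin covariate and in batch 1 alone, and to 8 under cyclic loess, quantile normalization or the array range covariate, with medians of 0.11, 0.12 and 0.17. Over all genes, between 1 and 1272 passed there, with 200 (1.49%) as reported. The share of all genes passing was 0.0374% with the beta-actin covariate, 0.799% in batch 1 and 0.00747% in batch 2. It was 9.5% with array weights and 6.12% by the methods' procedure. That procedure drops probe sets with an interaction p below 0.05, which removed the reported probe sets of Ivd and Mccc2. Both genes passed there through other probe sets. With 1 mouse left out it ran from 0.463% to 4.95%, the latter in the fit with 4 genes. Between human and pellet diets 1 gene passed, against 2 with cyclic loess, quantile normalization, array range as a covariate or array weights, 3 without the 4 arrays of lowest range, 0 in batch 2 alone and 1 to 2 when 1 mouse was left out. Hibch was an added gene in each of these gains. Of all genes, 4.98% passed in the reported fit of human against pellet diets. In the gains the share was 8.94%, 8.64%, 10.3%, 9.88% and 8.79%, in the order given. It was 6.42% in the fit without 1 mouse in which 2 genes passed. Between chimpanzee and pellet diets 1 gene passed, against 0 with the beta-actin covariate, in either batch alone or without the 4 arrays of lowest range. The cause was not tested, except that single batches hold fewer mice. Between cafeteria and fast food diets 0 passed throughout. With the replicate number as a block, 2, 1, 1 and 0 of the 10 genes passed in the 4 comparisons, and Ppm1k between human and pellet diets no longer passed (adjusted p = 0.0521). Same-numbered mice of a batch shared only a number: deviations of 36 pairs correlated from -0.63 to 0.41, with 12 above 0.1.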
